A study of Mus musculus with 8 samples.

Results

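The genes described here were the 10 components of the IL-1 receptor family and its MyD88 pathway that the series was searched for by symbol, Il33, Il1rl1, Il1r1, Il1rap, Myd88, Irak4, Irak1, Irak2, Irak3 and Traf6. All 10 were among the 12160 genes of the count table, and all 10 had enough counts to be tested in each comparison. They were measured in pancreatic stellate cells (PSCs), fibroblast-like cells that reside in the pancreas, from 1 immortalized mouse line grown as 3D domes in growth factor reduced Matrigel. Every dome had 4 days in DMEM growth medium with 10% FBS and then 4 days in 1 of 3 media. In 3 domes the medium had been conditioned by KPC-shBrca2 organoids (shBrca2-CM), mouse pancreatic cancer cells carrying a lentiviral short hairpin RNA against Brca2. In the other 3 conditioned domes it came from KPC-shControl organoids (shControl-CM), which carried a non-targeting hairpin. The control medium group had 2 domes. The sample titles name its medium DMEM, and the recorded treatment names medium conditioned by the PSCs themselves. By the study's methods, the organoids conditioned a medium with less FBS than the growth medium. The serum level of the control medium is not certain, and a part for serum in the comparisons with control medium was not tested. Because all 8 libraries came from 1 line, the spread between domes holds no variation between animals or lines, and p-values measure the spread between domes only. The hairpin acted in the organoids that conditioned the medium, not in the PSCs, whose genotype was shared by all groups.

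Cytokines of the IL-1 family act through paired receptors. IL-1 binds IL1R1, and IL-33 binds ST2, the product of Il1rl1; both then recruit the shared accessory chain IL1RAP. The paired TIR domains of the receptor bind the adaptor MyD88, which gathers IRAK4, IRAK1 and IRAK2 into a kinase complex that hands the signal to the ubiquitin ligase TRAF6 and on to NF-κB and MAP kinases. IRAK3, also called IRAK-M, restrains the same complex, and soluble forms of ST2 and IL1RAP act as decoys. In fibroblasts of pancreatic tumours, IL-1 is known as an inducer of the inflammatory state. IL-33 is a nuclear cytokine of barrier and stromal cells that is set free when cells are damaged.

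Read totals differed with the medium. Total counts ran from 655996 to 1095534 with shBrca2-CM, from 1093609 to 1624392 with shControl-CM and from 4623846 to 5476988 with control medium. Depth and medium therefore cannot be told apart in the comparisons with control medium. Between the conditioned media the ranges barely met, so depth differed with the medium there too. Levels are given as CPM, counts scaled to library size by TMM. A floor of 3 counts, which covers counting error only, stood at 4.34 CPM where depth was lowest and at 0.521 CPM where it was highest. Of 13 fibroblast and stellate markers, 12 were in the table, and their summed level was 3245 to 3413 CPM with shBrca2-CM, 4219 to 4764 CPM with shControl-CM and 5455 to 6520 CPM with control medium. The markers within this sum went both ways, with 4 called higher and 4 lower with shControl-CM than with control medium, and 6 higher and 4 lower with shBrca2-CM, where 37.1% and 37.8% of all genes were called. Between the conditioned media, where 3.13% of all genes were called, 1 was higher with shBrca2-CM (Pdgfra, 0.85) and 3 were lower (Dcn, −0.93, Pdpn, −1.07, and Lum, −1.59). Against control medium, Vim fell by 3.38 and by 2.68 on the log2 scale, while Dcn rose by 4.50 and by 3.56. Gfap, Epcam, Cdh1 and Ptprc were not among the genes in the table, nor was any of 6 mast cell markers. The 3 epithelial markers present (Krt18, Krt19, Muc1) summed to 59.3 to 94.1, 57.7 to 70.6 and 37.0 to 41.7 CPM in the same order of media. The 3 leukocyte markers present (Cd68, Csf1r, Lyz2) summed to 13.0 to 26.6, 23.7 to 36.0 and 9.46 to 11.5 CPM. Both sums were higher with the conditioned media than with control medium, as were Il1rl1 and Il33, and their part in the results below was not tested. The markers within them did not all follow the sum. Krt19 was at 24.3 and 25.4 CPM with control medium, at 2.04 to 3.87 CPM with shControl-CM and at 5.79 to 16.2 CPM with shBrca2-CM, called lower with both conditioned media and higher with shBrca2-CM than with shControl-CM, whereas Krt18 and Muc1 were called higher with both. Of the leukocyte markers, Cd68 was called higher with both conditioned media, Csf1r with shControl-CM, and Lyz2 with neither (3.65 and 4.34 CPM with control medium, 0 to 4.98 CPM in the conditioned libraries). The sum of the 2 endothelial markers present (Kdr and Tek) ran the other way, at 0.888 to 1.45, 0 to 1.28 and 3.44 to 3.48 CPM. Tek alone was at 0.888 to 1.45 CPM with shBrca2-CM and at 1.04 and 1.07 CPM with control medium. Both genes were at the floor in both conditioned groups, and neither was called against control medium. In libraries of whole domes, fewer cells of a type and less RNA per cell cannot be told apart.

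Il1rl1 and Il33, a receptor and its ligand, were the members that rose by the most with both conditioned media, and DNA just upstream of annotated starts is shown for that reason. The RefSeq promoter windows used (GRCm38.p6, the assembly that mm10 follows) cover 2 starts of each gene. The annotated Il1rl1 gene begins further upstream, at base 40404864 of chromosome 1, and the windows do not cover that start. Every window holds the 250 bases before a start, read 5′ to 3′ on the plus strand. Capitals mark a match to the C/EBP motif TTGCNNAA (TTNNGCAA on the other strand). The windows are chr1:40429320-40429569 and chr1:40439379-40439628 for Il1rl1, and chr19:29924863-29925112 and chr19:29945540-29945789 for Il33.
Il1rl1 window 1: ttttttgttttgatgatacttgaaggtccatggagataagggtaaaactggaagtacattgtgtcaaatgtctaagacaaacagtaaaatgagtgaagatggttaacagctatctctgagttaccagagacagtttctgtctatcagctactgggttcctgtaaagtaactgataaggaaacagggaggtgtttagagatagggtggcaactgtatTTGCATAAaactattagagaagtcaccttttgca
Il1rl1 window 2: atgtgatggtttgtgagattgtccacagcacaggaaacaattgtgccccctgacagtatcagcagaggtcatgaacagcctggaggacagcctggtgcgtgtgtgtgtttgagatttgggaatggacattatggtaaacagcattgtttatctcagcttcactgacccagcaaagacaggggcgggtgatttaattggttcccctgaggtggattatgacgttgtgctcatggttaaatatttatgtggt
Il33 window 1: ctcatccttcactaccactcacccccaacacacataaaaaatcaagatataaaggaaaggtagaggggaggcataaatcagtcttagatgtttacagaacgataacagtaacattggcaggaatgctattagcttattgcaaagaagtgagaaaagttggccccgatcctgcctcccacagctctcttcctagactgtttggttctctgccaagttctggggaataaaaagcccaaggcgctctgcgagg
Il33 window 2: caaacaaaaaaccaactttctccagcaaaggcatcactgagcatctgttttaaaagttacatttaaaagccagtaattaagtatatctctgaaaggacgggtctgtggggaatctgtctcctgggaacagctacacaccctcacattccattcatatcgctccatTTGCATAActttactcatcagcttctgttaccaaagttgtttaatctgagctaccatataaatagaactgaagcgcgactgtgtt

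The same 8 letters, TTGCATAA, stood 34 bases before the start in window 1 of Il1rl1 and 85 bases before the start in window 2 of Il33. A further match, TTGCTGAA, lay 133 bases before a start of Il1r1, in the window chr1:40224830-40225079. The motif was searched on both strands in 15 windows of the 10 members and was found in 3 of them, against 9.56% of the 32851 windows of that length in the RefSeq table. C/EBP factors, NF-κB and AP-1 are the factors best known downstream of IL-1 receptors. The NF-κB motif (GGG and TTTCC with any 2 bases between them, read on both strands) and the AP-1 motif TGANTCA, its own reverse complement, were found in 0 member windows, against 1.41% and 6.75% of all windows. The interferon response motif (GAAA and GAAA with any 2 bases between them, read on both strands) was found once, 40 bases before the start of Myd88, against 2.98% of all windows. No window held more than 1 of these motifs, so none overlapped. Counts from the 3′ ends of transcripts do not show which start was used, nor do they separate membrane from soluble forms of Il1rl1 and Il1rap.

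Il1rl1 (chr1:40404864-40465418) encodes ST2, the receptor of IL-33. It was at 12.9 and 12.3 CPM with control medium, at 279, 212 and 268 CPM with shControl-CM and at 166, 172 and 200 CPM with shBrca2-CM. The control libraries were far below all 6 conditioned libraries, and the shBrca2-CM libraries were all below the shControl-CM libraries. Raw counts behind these levels were 74 and 57, then 435, 219 and 395, then 115, 138 and 225. By edgeR's quasi-likelihood test with Benjamini-Hochberg adjustment over all genes, Il1rl1 rose with shControl-CM by 4.32 on the log2 scale (SE 0.21, adjusted p = 9.45e-07), a 20.0-fold difference. With shBrca2-CM it rose by 3.84 (SE 0.19, adjusted p = 8.07e-26), a 14.3-fold difference.

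Il33 (chr19:29925113-29960718) encodes the ligand of ST2. Its levels were 7.99 and 9.46 CPM with control medium, 41.0, 30.0 and 21.7 CPM with shControl-CM and 17.4, 21.2 and 16.0 CPM with shBrca2-CM. As for its receptor gene, the 3 groups did not overlap and lay in the same order, although the lowest shControl-CM library (21.7 CPM) and the highest shBrca2-CM library (21.2 CPM) nearly met. Il33 rose with shControl-CM by 1.82 on the log2 scale (SE 0.33, adjusted p = 0.00272), a 3.54-fold difference. With shBrca2-CM it rose by 1.05 (SE 0.31, adjusted p = 0.00544), a 2.07-fold difference. Ligand and receptor transcripts were thus higher in the same 6 libraries, from counts of 12 to 64 for Il33 in each conditioned library.

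Il1r1 (chr1:40222480-40316201), the signalling receptor of IL-1, was called against control medium with shControl-CM and not with shBrca2-CM, and the difference between the conditioned media itself was not called (adjusted p = 0.169). It was at 30.9 and 32.7 CPM with control medium, at 80.1, 52.2 and 49.6 CPM with shControl-CM and at 31.8, 28.6 and 42.6 CPM with shBrca2-CM. The shControl-CM libraries were all above the other 5, whereas the shBrca2-CM libraries lay on both sides of the control libraries. Il1r1 rose with shControl-CM by 0.93 on the log2 scale (SE 0.25, adjusted p = 0.0167), a 1.91-fold difference that was no longer called without control medium replicate 1 (adjusted p = 0.140) or replicate 2 (adjusted p = 0.119). In those fits 1 control library was left, and it was taken to vary as the shControl-CM libraries did. Against control medium, the difference with shBrca2-CM was 0.15 (SE 0.22, 95% interval −0.29 to 0.58, adjusted p = 0.632).

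Il1rap (chr16:26581509-26730128) encodes the accessory chain that both receptors need. It was at 13.6 and 9.46 CPM with control medium, at 14.7, 2.90 and 0.679 CPM with shControl-CM and at 7.23, 17.4 and 7.99 CPM with shBrca2-CM. The 3 groups overlapped, and the shControl-CM libraries alone spread from 1 to 23 counts. Neither conditioned medium gave a call against control medium, with log2 differences of −0.83 (SE 0.66, 95% interval −2.30 to 0.63) for shControl-CM and −0.11 (SE 0.35, 95% interval −0.82 to 0.59) for shBrca2-CM. The result rested on shControl-CM replicate 1, which held the 23 counts. Without that library Il1rap was called lower with shControl-CM than with control medium (adjusted p = 0.00187) and higher with shBrca2-CM than with shControl-CM (adjusted p = 0.0381). The shControl-CM group was then at the floor of 3 counts, with 3 and 1, so no size is given for these differences.

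Myd88 (chr9:119335934-119340018), the adaptor that all of these receptors share, was at 67.8 and 72.9 CPM with control medium, at 85.2, 58.9 and 79.5 CPM with shControl-CM and at 70.9, 58.5 and 77.2 CPM with shBrca2-CM. Both conditioned groups lay on either side of the control libraries. The log2 differences from control medium were 0.09 (SE 0.19, 95% interval −0.34 to 0.52) and −0.02 (SE 0.17, 95% interval −0.37 to 0.33), and their signs turned with the scaling or with the library left out. With 47 to 390 counts in each library, these intervals were among the narrowest of the 10 genes.

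Among the kinases, Irak1 and Irak2 were called in opposite directions. Irak1 (chrX:74013914-74023921), the kinase that IRAK4 phosphorylates, was at 91.1 and 89.4 CPM with control medium, at 134, 153 and 178 CPM with shControl-CM and at 140, 128 and 144 CPM with shBrca2-CM. All 6 conditioned libraries were above both control libraries, and the conditioned groups overlapped. Irak1 rose by 0.77 on the log2 scale with shControl-CM (SE 0.17, adjusted p = 0.0083) and by 0.61 with shBrca2-CM (SE 0.16, adjusted p = 0.00107), or 1.71-fold and 1.53-fold.

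Irak2 (chr6:113638467-113695026), the second kinase IRAK4 acts on and one that prolongs the signal, had its lowest values with shBrca2-CM. Its levels were 15.6 and 19.8 CPM with control medium, 12.2, 11.6 and 15.6 CPM with shControl-CM and 1.45, 9.96 and 5.33 CPM with shBrca2-CM. The 3 shBrca2-CM libraries, with 1, 8 and 6 counts, were below the other 5. Irak2 was lower with shBrca2-CM than with control medium by −1.62 on the log2 scale (SE 0.38, adjusted p = 5.03e-04), a call that was lost once all libraries were thinned to the smallest total (−1.23, adjusted p = 0.139). With shControl-CM the difference was −0.42 (SE 0.29, 95% interval −1.07 to 0.22, adjusted p = 0.285).

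Irak4, Irak3 and Traf6 were measured with few counts, at most 19 in any conditioned library. Irak4 (chr15:94543613-94568317), the kinase that starts the complex, ranged from 1.24 to 10.1 CPM in the 3 shBrca2-CM libraries, from 2.90 to 4.75 CPM with shControl-CM and from 4.00 to 4.51 CPM with control medium. Irak3 (chr10:120141648-120202130), the inhibitory member, ranged from 4.98 to 8.68, from 5.43 to 12.2 and from 4.30 to 6.26 CPM in that order of media. Traf6 (chr2:101678420-101701668), the ubiquitin ligase that links the complex to NF-κB, ranged from 3.73 to 8.68, from 2.72 to 6.41 and from 6.60 to 7.52 CPM. Groups overlapped for all 3 genes except for Traf6 with shControl-CM against control medium. The 6 log2 differences from control medium ran from −0.68 (Traf6 with shControl-CM, 95% interval −1.64 to 0.28) to 0.63 (Irak3 with shControl-CM, 95% interval −0.33 to 1.59), and at this depth none was called.

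**Figure D1:**
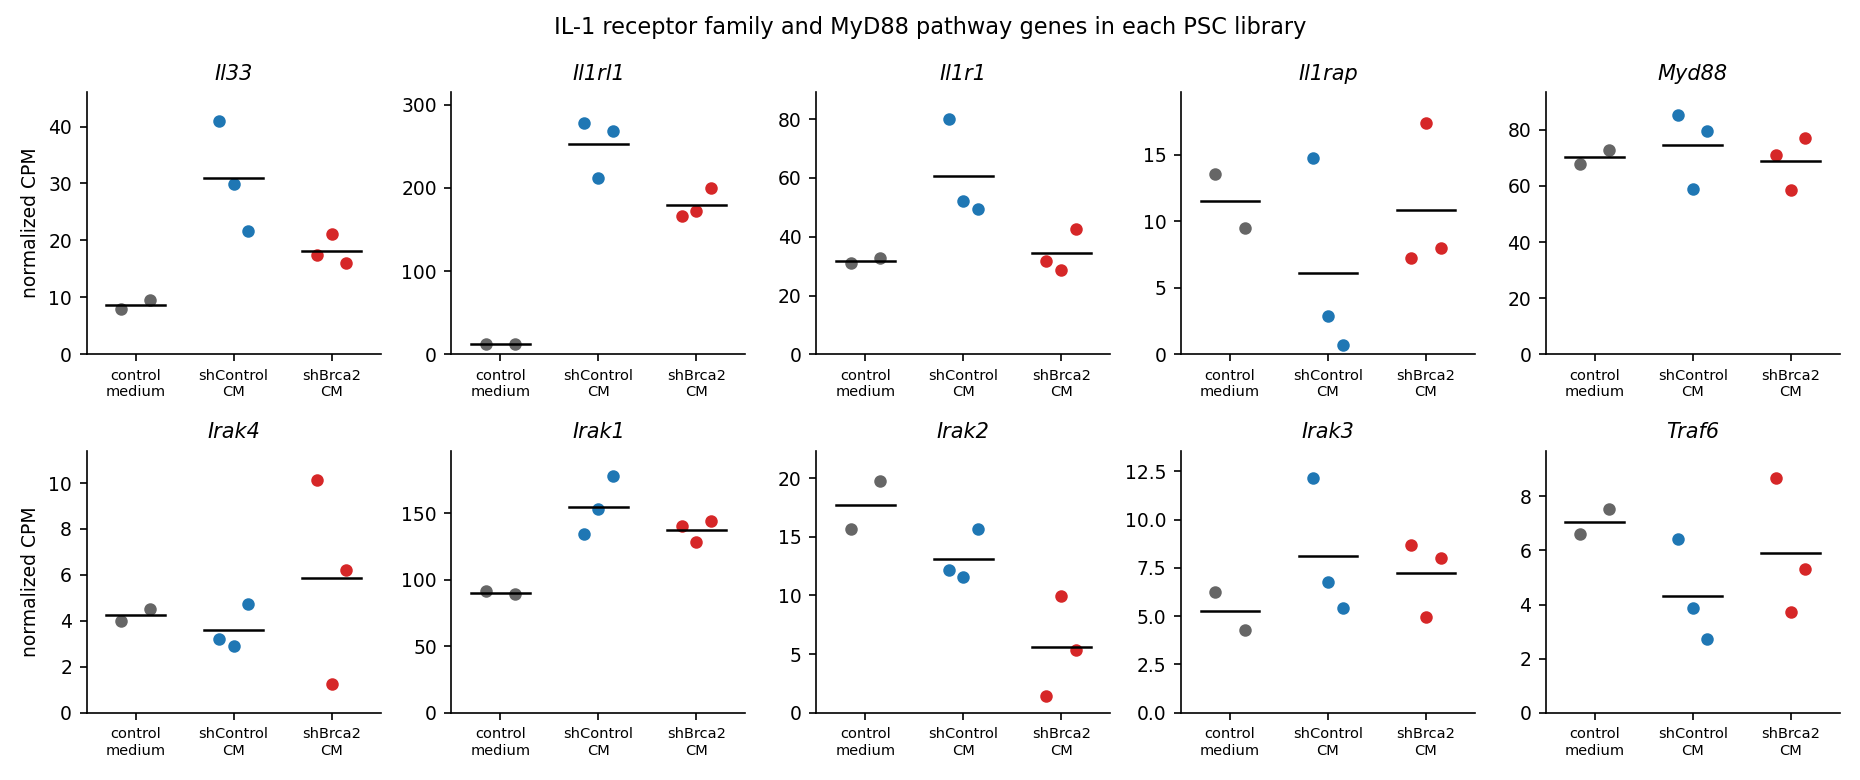
Normalized CPM (y axis, linear, from 0, a separate scale for each gene) of the 10 genes in each PSC library, by medium (x axis). Points are libraries (2 with control medium, 3 with each conditioned medium) and lines are group means. Il1rl1 and Il33 stood above control medium in all 6 conditioned libraries, Il1r1 stood apart with shControl-CM, Irak2 was lowest with shBrca2-CM, and Myd88 overlapped between all media.

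Against control medium, 4 of the 10 members were called with shControl-CM, all higher (Il1rl1, Il33, Il1r1 and Irak1), where a call needed an adjusted p under 0.1, a log2 difference beyond 0.5 in size and a mean normalized count over 5. Over all genes tested, 37.1% were called in that comparison (4488 of 12086). This background fell to 1901 of 11575 genes without control medium replicate 1 and to 2269 of 11777 without replicate 2, with 3 members called in each. With shBrca2-CM, 4 members were again called, 3 higher (Il1rl1, Il33 and Irak1) and 1 lower (Irak2), where 37.8% of all genes were. With all libraries, the members' share of calls was near the background in both. Groups did not overlap for 6 members with shControl-CM and for 4 with shBrca2-CM, against 59.9% and 57.4% of all genes. Both comparisons used the same 2 control libraries, so a gene at an unusual level in those libraries would move in both. The calls of Il1rl1, Il33 and Irak1 held in both comparisons under 14 alternatives, among them libraries thinned to the same total count. At a stricter threshold (adjusted p under 0.05 and a log2 difference over 1) Il1rl1 and Il33 were called in both and Irak1 in neither.

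Whether the domes of a group received separately prepared medium is not stated in the sources used. Hairpin, organoid line and batch of medium therefore cannot be told apart between the conditioned media. In that comparison 0 of the 10 members were called by edgeR, and 0 by DESeq2's likelihood ratio or Wald test. Over all genes, edgeR called 3.13% there (1.58% higher and 1.55% lower). That count of 345 genes became 976 without shControl-CM replicate 1 and 128 without shBrca2-CM replicate 2. At an unadjusted p under 0.05 there were 4 members, out of 1477 genes of 11035 tested. These 4 also had no overlap between groups, as did 19.8% of all genes, and each had its lower values with shBrca2-CM. The log2 difference was −1.17 for Irak2 (SE 0.48, 95% interval −2.22 to −0.13, adjusted p = 0.306), −0.78 for Il1r1 (SE 0.25, 95% interval −1.32 to −0.24, adjusted p = 0.169), −0.75 for Il33 (SE 0.31, 95% interval −1.43 to −0.08, adjusted p = 0.306) and −0.47 for Il1rl1 (SE 0.15, 95% interval −0.79 to −0.15, adjusted p = 0.159). The interval of Il1rl1 did not reach beyond −0.79, where its rises over control medium were 4.32 and 3.84. Single libraries decided some of these calls. Without shControl-CM replicate 3, Il1r1 (−0.93, adjusted p = 0.0339) and Il33 (−0.99, adjusted p = 0.0635) were called, and with all libraries thinned to the smallest total Il1r1 was called (−0.90, adjusted p = 0.0794).

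The other 6 members did not separate the conditioned media. The difference of Irak1 was −0.14 (95% interval −0.47 to 0.18) and that of Myd88 was −0.09 (95% interval −0.51 to 0.32). Intervals were far wider for Il1rap (−0.85 to 2.37), Irak4 (−0.73 to 2.04), Traf6 (−0.79 to 1.62) and Irak3 (−1.18 to 0.85), whose counts could not show a difference of moderate size.

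**Figure D2:**
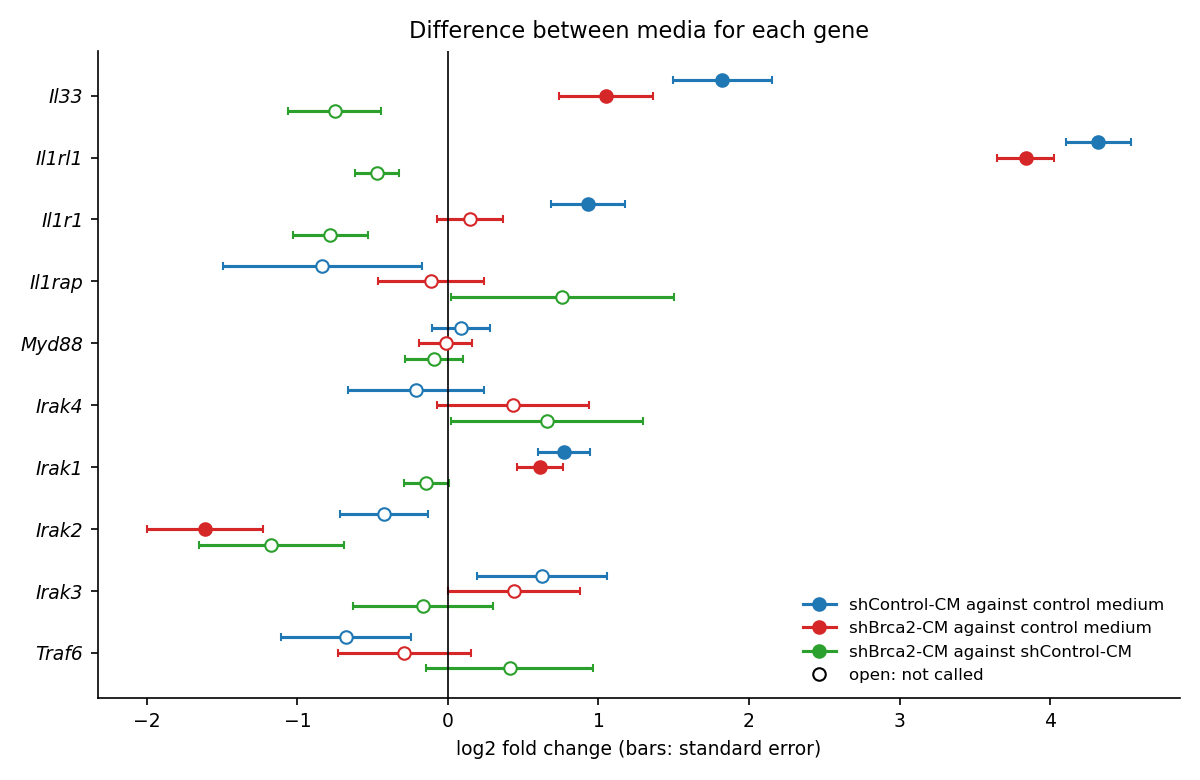
Log2 fold change (x axis) of each of the 10 genes (y axis) in the 3 comparisons, with bars of 1 standard error. Filled points were called and open points were not. Il1rl1 lay at 4.32 and 3.84 against control medium, and all points of the direct comparison of conditioned media are open.

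Il1rl1 and Il1r1 belong to a run of IL-1 receptor genes on chromosome 1. In their order along the chromosome these are Il1r2, Il1r1, Il1rl2, Il1rl1, Il18r1 and Il18rap, within chr1:40084692-40551707, a span of 467 kb. Il18r1 begins 133 bases past the end of Il1rl1 and is not analysed here, as the table does not list it among its genes. At the far end, Il18rap, the accessory chain of the IL-18 receptor, was at 11.3 and 12.0 CPM with control medium, at 66.6, 86.0 and 59.1 CPM with shControl-CM and at 63.7, 53.5 and 62.1 CPM with shBrca2-CM. All 6 conditioned libraries were above both control libraries. It rose by 2.58 (SE 0.25, adjusted p = 7.61e-05) and by 2.36 (SE 0.22, adjusted p = 2.47e-13) on the log2 scale. Il1rl2, the IL-36 receptor, lies between Il1r1 and Il1rl1 and was at 8.38 to 9.21 CPM with control medium, 8.33 to 12.2 CPM with shControl-CM and 7.47 to 10.1 CPM with shBrca2-CM, with overlap throughout. Il1r2, the decoy receptor of IL-1, had 0 counts in both control libraries, 7, 2 and 4 with shControl-CM and 0, 1 and 0 with shBrca2-CM. Against control medium its level with shControl-CM was at least 4.72-fold higher, but its mean count was too low for a call, and an overlapping gene, Gm16894, is also counted in the table. Neighbours in the run thus differed in response, from no call at Il1rl2 to 20.0-fold at Il1rl1.

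**Figure D3:**
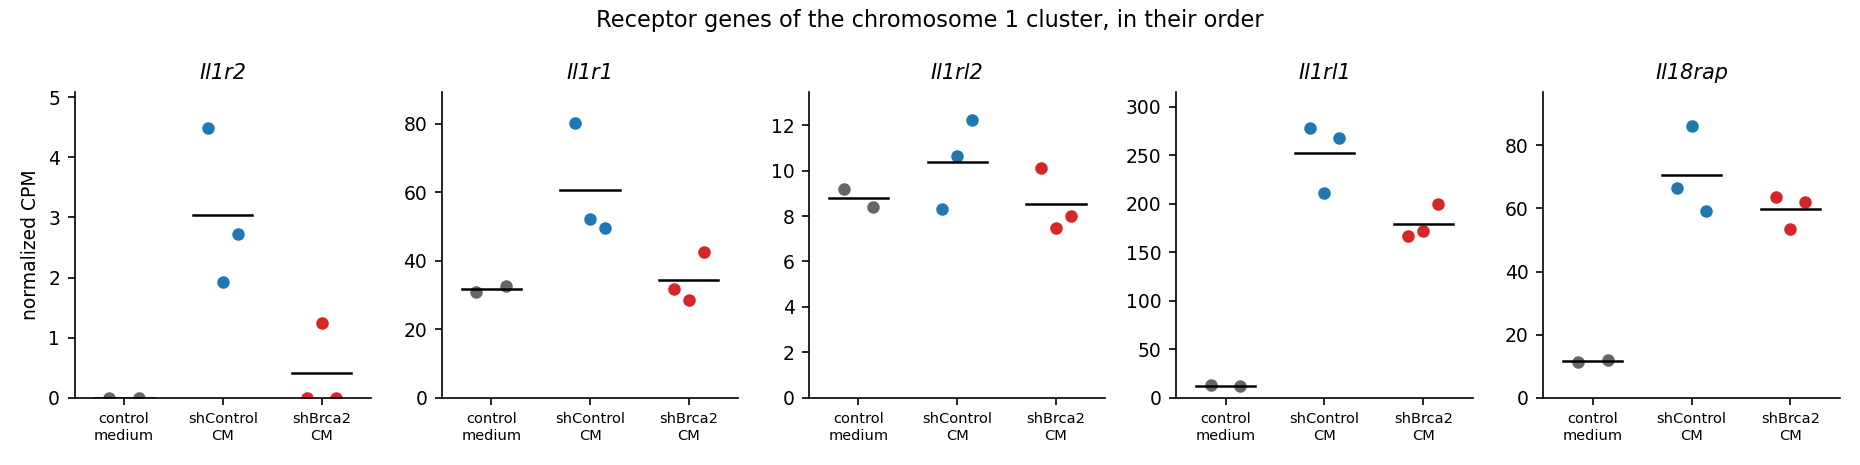
Normalized CPM (y axis, linear, from 0, a separate scale for each gene) of the 5 measured receptor genes of the chromosome 1 run, left to right in their order on the chromosome, by medium (x axis). Points are libraries and lines are group means. Il1rl1 and Il18rap were higher in all 6 conditioned libraries than with control medium, Il1rl2 overlapped between all media, and Il1r2 was seen mainly with shControl-CM.

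Other ligands, decoys and receptors of the family were read from a list that also held Il1r2, Il1rl2 and Il18rap. Of 17 genes listed, 7 were in the table, and neither Il1a nor Il1b, the genes of IL-1 itself, was among these 7. Against control medium, 3 rose with each conditioned medium while none fell. That was 3 of 7 tested with shControl-CM and 3 of 6 with shBrca2-CM, beside 37.1% and 37.8% called over all genes. They were Il18rap, Il1rn, which encodes the IL-1 receptor antagonist, and Sigirr, an inhibitory receptor. Il1rn was at 7.30 and 6.23 CPM with control medium, at 17.9, 20.3 and 35.3 CPM with shControl-CM and at 18.8, 24.9 and 20.4 CPM with shBrca2-CM. Its log2 differences were 1.85 (SE 0.35, adjusted p = 0.00364) and 1.65 (SE 0.31, adjusted p = 1.71e-05). Sigirr differed by 1.01 (SE 0.40, adjusted p = 0.0764) and by 1.25 (SE 0.36, adjusted p = 0.00456). Il18, with 0 to 4 counts in each conditioned library, and Il18bp, which binds IL-18, were not called. The list's median log2 difference was 1.01 with shControl-CM and 0.74 with shBrca2-CM, where the medians of all genes were −0.10 and −0.05. Between the conditioned media, 0 of 6 tested were called, where 3.13% of all genes were.

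Downstream of MyD88, genes of the adaptors, relays and kinases were called in both directions. Of 31 listed genes, 29 were in the table. With shControl-CM 6 of 29 rose and 2 fell against control medium (median log2 difference 0.35), and with shBrca2-CM 10 rose and 3 fell (median 0.11), where 37.1% and 37.8% of all genes were called. The 8 calls with shControl-CM became 5 without control medium replicate 1 and 4 without replicate 2. The largest rises in both were of Ube2n, which encodes the ubiquitin-conjugating enzyme that works with TRAF6, at 2.13 (SE 0.46) and 1.54 (SE 0.57), from at most 17 counts per library. Tab1, a partner of the kinase TAK1, rose by 0.80 with shControl-CM (SE 0.19, adjusted p = 0.0110) and by 1.02 with shBrca2-CM (SE 0.18, adjusted p = 2.85e-06). Irak1bp1, named for its binding to IRAK1, fell by 1.27 (SE 0.21, adjusted p = 0.00154) and by 0.94 (SE 0.21, adjusted p = 1.81e-04). Between the conditioned media, 0 of 27 tested were called, where 3.13% of all genes were, and the median difference was −0.02. With each library left out in turn, 0 to 1 of the list were called there.

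The negative regulators split in both directions. All 18 listed genes were in the table, and against control medium 8 rose and 3 fell with shControl-CM (median 0.50), while 5 rose and 4 fell with shBrca2-CM (median 0.13), beside the same 37.1% and 37.8% of all genes. The 11 calls with shControl-CM became 4 without shControl-CM replicate 2 and 4 without either control medium library. Socs1, a brake on cytokine receptors, fell by 1.97 (SE 0.29, adjusted p = 8.29e-04) and by 1.87 (SE 0.25, adjusted p = 1.36e-08). Socs3, a brake on IL-6 family signalling, rose by 1.99 (SE 0.18, adjusted p = 5.44e-05) and by 1.06 (SE 0.18, adjusted p = 2.28e-06). Zc3h12a encodes Regnase-1, an RNase that degrades inflammatory mRNAs. It was at 18.9 and 17.6 CPM with control medium, at 83.9, 97.6 and 109 CPM with shControl-CM and at 18.8, 13.7 and 20.4 CPM with shBrca2-CM. The shControl-CM libraries stood apart from all 5 others, and the shBrca2-CM libraries overlapped those with control medium. Of the 18 genes, 2 were called between the conditioned media, where 3.13% of all genes were called and 1.55% were called lower. Both were lower with shBrca2-CM, Zc3h12a by −2.41 (SE 0.22, adjusted p = 1.19e-04) and Socs3 by −0.92 (SE 0.16, adjusted p = 0.0109). With each library left out in turn, 1 to 3 genes of the list were called in this comparison.

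The list of IL-1 responsive secreted and surface genes had the largest median of the 6 pathway lists in each comparison with control medium and, by size, between the conditioned media. It was chosen with earlier results of these data known, so its counts and medians describe these genes and are no test of an IL-1 response. Of 26 listed genes, 23 were in the table. With shControl-CM 21 rose and 1 fell, Ccl2 (−0.51), with a median log2 difference of 3.47. With shBrca2-CM 20 rose and 0 fell, with a median of 2.12. Over all genes 37.1% and 37.8% were called, and the medians were −0.10 and −0.05. Between the conditioned media 11 were lower with shBrca2-CM and 0 were higher, with a median of −1.09 against 0.03 over all genes, of which 3.13% were called and 1.55% were called lower. Il11, a cytokine of the IL-6 family, was at 2.78 and 1.5 CPM with control medium, at 176, 152 and 200 CPM with shControl-CM and at 14.5, 14.9 and 24.0 CPM with shBrca2-CM. It differed between the conditioned media by −3.23 on the log2 scale (SE 0.22, adjusted p = 1.05e-05). Leaving out shBrca2-CM replicate 2 took this count from 11 to 7.

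**Figure D4:**
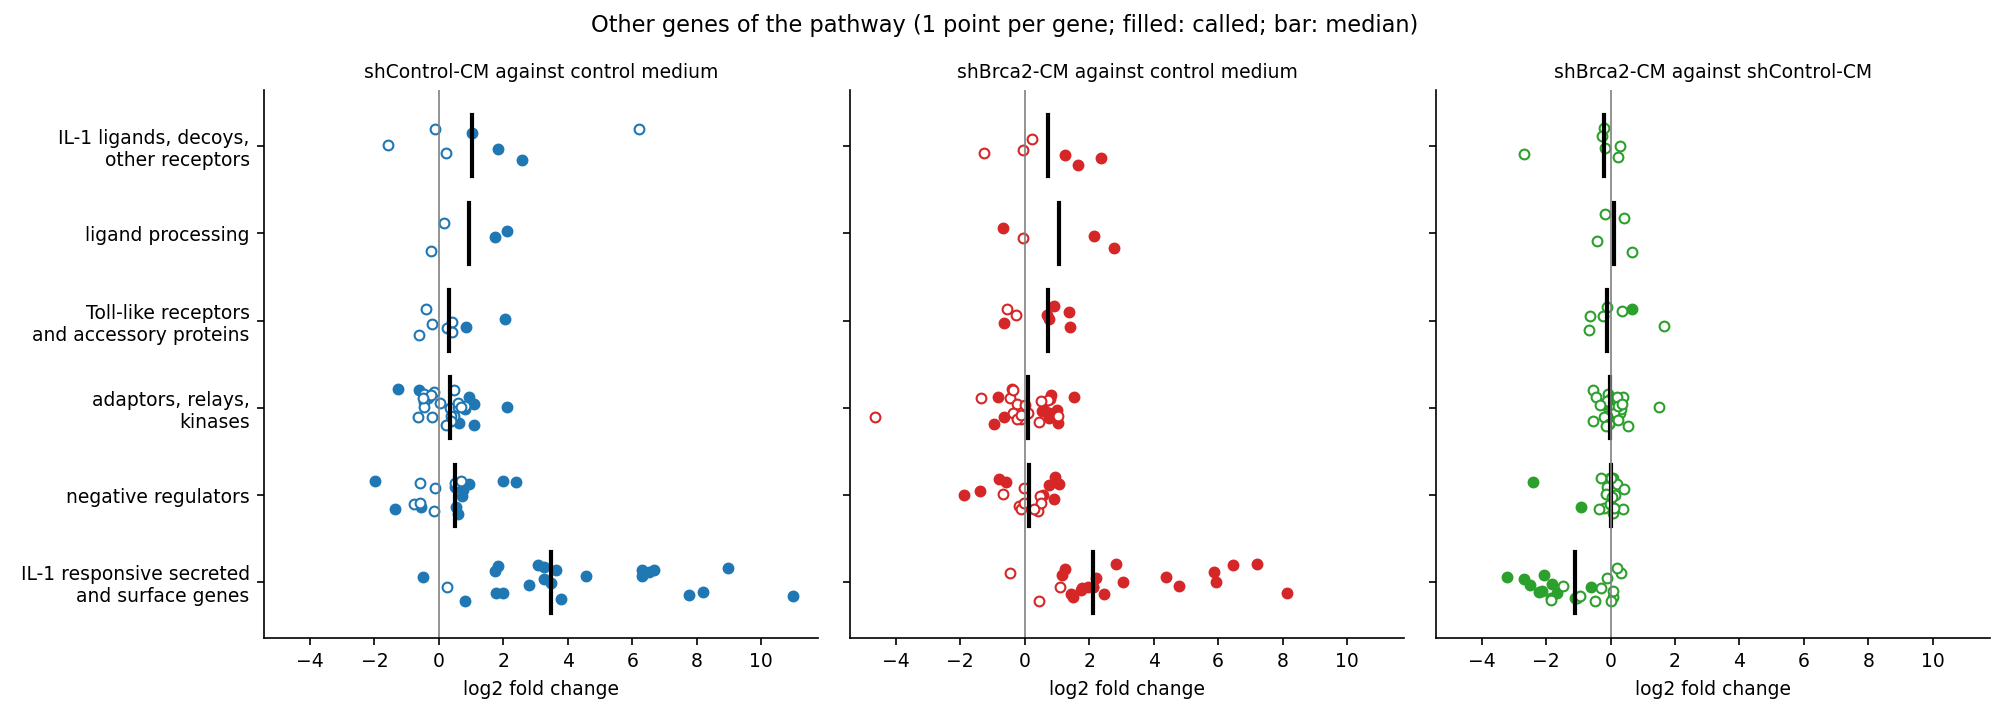
Log2 fold change (x axis) of the other pathway genes, 1 point per gene, by list (y axis) and comparison (panels). Filled points were called, open points were not, and black bars are list medians. The IL-1 responsive genes had medians of 3.47, 2.12 and −1.09 in the 3 panels, and the adaptors, relays and kinases stayed near 0 between the conditioned media. The lists were chosen with earlier results of these data known.

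To place the called members among all genes, each was compared over the 8 libraries with 9526 genes that had a mean of at least 10 counts, by the root mean square difference of log2 CPM after centring each gene on its mean. The pattern nearest to Il1rl1 was that of Dcn (0.284), which encodes the matrix proteoglycan decorin, followed by Taok1 (0.308) and Hat1 (0.365). Dcn was at 105 and 80.0 CPM with control medium, at 2257, 2141 and 1922 CPM with shControl-CM and at 1222, 910 and 1127 CPM with shBrca2-CM, the same order of media as Il1rl1. For Il33 the nearest were Eml1 (0.214), Ctsh (0.236) and Gm2115 (0.251), and for Il1r1 they were Slc25a47 (0.184), Kcnk5 (0.185) and Gsto1 (0.199). Irak1 had the closest neighbours, Ddx47 (0.0570), Rtf2 (0.0603) and Pih1d1 (0.0709). Irak2 had Misp3 (0.314), Mfsd2a (0.361) and Rasl11b (0.382). By the same measure Il1rl1 lay 1.19 from Il33 and 1.53 from Il1r1, and Il33 lay 0.449 from Il1r1.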

How the data were processed

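Gene expression of 8 PSC cultures was read from the count table of the series, which the authors deposited as raw counts (1 column per library, neither normalized nor pooled). The libraries were made by a 3′-end protocol (MARS-seq). The submitters' processing notes name bcl2fastq, cutadapt, STAR 2.4.2a, HTSeq, DESeq2 and build mm10. Annotation, strand setting, handling of molecular identifiers and the rule by which genes entered the table are not given in the sources used here, so overlapping genes and copies that share reads are uncertain. A further per-sample column (1) matched no sample and was not used.

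Samples were grouped by title and recorded treatment. Cell numbers seeded differ between the sample records and the study's methods, so none is given. In R 4.3.3, edgeR 4.0.16 was run for each pair of groups on all genes reaching 10 counts in total (TMM, glmQLFit, glmQLFTest), with Benjamini-Hochberg adjustment over all genes tested. Standard errors are the log2 difference divided by the square root of F, and 95% intervals use the moderated degrees of freedom. Levels are TMM-scaled CPM. Counting error is largest in the shBrca2-CM libraries. A group with 3 or fewer counts in every library was taken as at the floor. The procedure was tested before use on simulated data with large changes in genes of higher count. That test says nothing of small changes or of genes with few counts. Replicates differed by more than counting noise in every group, so each was kept as its own sample. Same-numbered conditioned libraries correlated at −0.0305, −0.00689 and 0.123 in their deviations from group means, and no block was used.

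The members and gene lists were chosen with earlier results of these data known. Named were all members, every measured gene of the family list, markers, genes drawn from the up to 3 called with the largest difference in each direction of each other list and comparison (not all of these are named), and the 3 genes most like each called member (log2 CPM, prior count 2). Promoter windows and gene positions came from RefSeq (GRCm38.p6). Alternatives were DESeq2 1.42.0 (likelihood ratio or Wald test), edgeR scaled by DESeq2's size factors or by total counts, no count filter or filterByExpr, a stricter threshold, 1 fit of all groups, a replicate block, libraries thinned to 655996 counts, and each library left out.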

Additional observations from a re-analysis of the deposited data

How the results depend on the processing

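The rises of Il1rl1, Il33 and Irak1 against control medium kept their direction and their call under every alternative run, except that Irak1 (0.77 and 0.61) fell short of the stricter threshold of log2 1 in both comparisons. Counts of calls that moved by over 1.5 times included the members called between the conditioned media (0 to 1, with libraries thinned), the members called with shControl-CM against control medium (4 to 2, at adjusted p under 0.05 and a log2 difference over 1) and the pathway list genes called with shBrca2-CM against control medium (54 to 32, at the same threshold). At that threshold the adaptors, relays and kinases called went from 8 to 4 with shControl-CM and from 13 to 2 with shBrca2-CM, the negative regulators from 11 to 4 and from 9 to 3, and the Toll-like receptor genes from 2 to 1 and from 6 to 2. Thinning took the adaptors, relays and kinases to 5 and the negative regulators to 7 with shControl-CM, and the replicate block took the former to 13. Total counts in place of TMM moved the median of all genes from 0.03 to 0.14 between the conditioned media, with 67.6% of calls higher rather than 50.4%, and from −0.10 to −0.21 with shControl-CM against control medium; called members kept their direction.

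Signs turned for differences that were near 0 or rested on few counts. With total counts, Myd88 came to 0.019 between the conditioned media and to −0.027 with shControl-CM against control medium. With thinned libraries, Irak3 came to 0.080 between the conditioned media, and with shBrca2-CM against control medium Il1rap came to 0.31, Myd88 to 0.10 and Irak4 to −0.33. The replicate block left the members called at 0, 4 and 4, with 12, 49 and 47 pathway list genes called, and turned Il1r1 to −0.072 and Il1rap to 0.15 with shBrca2-CM against control medium. It took the calls over all genes from 345 to 311 between the conditioned media, from 4488 to 4512 with shControl-CM and from 4555 to 3850 with shBrca2-CM. The replicate numbers are shared by label only, and not every conditioned library correlated best with the library of its own number.

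With each library left out in turn, between the conditioned media 0 to 2 members and 8 to 20 pathway list genes were called, the fewest list genes without shBrca2-CM replicate 2, Myd88 ran from −0.24 to 0.014 and Irak3 from −0.43 to 0.26. With shControl-CM against control medium 3 to 5 members and 31 to 56 list genes were called, the fewest list genes without control medium replicate 2, and Myd88 ran from −0.0086 to 0.22. With shBrca2-CM against control medium 4 members were called each time, as were 47 to 55 list genes, Il1r1 ran from −0.075 to 0.27, Il1rap from −0.59 to 0.18, Myd88 from −0.12 to 0.091 and Irak4 from −0.047 to 0.87. Low depth in the conditioned libraries limits what can be said of Il1rap, Irak3, Irak4 and Traf6.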

Other observations

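Genes that process IL-1 family ligands and Toll-like receptors, which use the same adaptor, were described by their counts alone. Of 9 ligand processing genes, 4 were in the table, of which 2 rose and 0 fell with shControl-CM and 2 rose and 1 fell with shBrca2-CM, where 37.1% and 37.8% of all genes were called. The 2 calls with shControl-CM became as few as 1 under the alternatives that kept all libraries. Casp4, an inflammatory caspase that senses lipopolysaccharide, was at 16.7 and 12.5 CPM with control medium, at 68.6, 74.4 and 50.9 CPM with shControl-CM and at 89.7, 99.6 and 107 CPM with shBrca2-CM, so that all 6 conditioned libraries stood above both controls. It rose by 2.13 (SE 0.26, adjusted p = 3.09e-04) and by 2.76 (SE 0.20, adjusted p = 4.44e-18) on the log2 scale by edgeR's quasi-likelihood test. Aim2, a sensor of cytosolic DNA, rose by 1.74 and 2.14, Casp8 fell by 0.67 with shBrca2-CM, and between the conditioned media 0 of 4 were called (3.13% of all genes were), although 1 was called in 4 of 16 alternatives. Casp4 had an adjusted p of 0.110 there.

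Of 18 Toll-like receptor and accessory genes, 8 were in the table, of which 2 rose and 0 fell with shControl-CM and 5 rose and 1 fell with shBrca2-CM, where 37.1% and 37.8% of all genes were called. Cd14, a co-receptor for lipopolysaccharide, rose by 2.04 (SE 0.34, adjusted p = 0.00177) and by 1.36 (SE 0.18, adjusted p = 9.05e-09). Between the conditioned media, where 3.13% of all genes were called and 1.58% were called higher, 1 of 7 tested was called, Lbp, which encodes the lipopolysaccharide binding protein. It was at 53.8, 54.1 and 72.0 CPM with shControl-CM and at 89.7, 102 and 92.3 CPM with shBrca2-CM, a difference of 0.68 (SE 0.17, adjusted p = 0.0760). The call of Lbp was not stable. Neither DESeq2 test called a gene of this list, nor did edgeR with the replicate block, at the stricter threshold, without any 1 of the 3 shBrca2-CM libraries or without shControl-CM replicate 2.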
